A study of Sus scrofa with 6 samples.

Results

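A set of 10 genes that make fatty acids, lengthen and desaturate them and store them as triglyceride in lipid droplets were followed in porcine small intestinal epithelial cells given chenodeoxycholic acid (CDCA), a primary bile acid. They were taken from the deposited expression table by gene symbol, 10 genes of the 31908 Ensembl pig gene IDs listed. The 10 symbols, ACLY, ACACA, FASN, SCD, ELOVL6, FADS1, FADS2, LPIN1, DGAT1 and PLIN2, each matched 1 gene ID. The cells were IPEC-J2, a pig jejunal line established from newborn animals without transformation. The CON group was 3 RNA libraries of cells kept with PBS, and the CDCA group was 3 of cells kept with CDCA, at 50 μM per the study's methods, both for 24 h. The 2 groups differed in no other labelled treatment. The study calls the libraries of a group biological replicates, without saying in the sources used here whether they were grown on separate days or passages, so p-values measure the spread between these libraries. The line is a single cell type in culture, without the fat absorption, bile flow or other cells of the gut.

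Fatty acid synthesis starts in the cytosol, where citrate is split to acetyl-CoA, acetyl-CoA is carboxylated to malonyl-CoA, and both are joined into palmitate. Palmitate is then lengthened and given double bonds in the endoplasmic reticulum, either to monounsaturated fatty acids or, from the essential dietary fatty acids, to polyunsaturated ones. Fatty acids that are not burnt or built into membranes are esterified to triglyceride and stored in droplets with a protein coat, which enterocytes also form when they absorb fat.

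The genes of this pathway did not move as a block. In the CDCA group the droplet coat gene PLIN2 was 2.22-fold higher, whereas the elongase gene ELOVL6 was 2.67-fold lower and the desaturase gene FADS2 was 1.76-fold lower, each as a ratio of mean TPM. FADS1, the partner of FADS2 in the same branch, had nearly the same mean in both groups. The early synthesis genes FASN and ACACA and the desaturase SCD were listed at a few TPM, and ACLY and LPIN1 lay below the level at which genes were tested.

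Expression was given as TPM, a length-corrected share of each library's transcripts, for each annotated transcript, and the listed transcripts of a gene were summed. The listed TPM summed to between 351770 and 366073 per library, where a complete library sums to 1000000, and the table holds no read counts. The number of reads behind a gene's value is therefore not known here, no counting interval can be given, and a gene's value can miss transcripts that are not listed. A limma model on log2(TPM + 1) was fitted to the 8708 genes whose mean over the 6 libraries reached 1 TPM, and p-values were adjusted over all of them by the Benjamini-Hochberg method (FDR). To be called, a gene needed an FDR under 0.05 together with a log2 fold change beyond 1 in either direction. For a low gene such a fold change understates the ratio of TPM. The 13 mitochondrial DNA-encoded mRNAs took 13.8% to 15.0% of the listed TPM in the CON group and 2.90% to 3.45% in the CDCA group. This leaves a larger share of the listed TPM to all other genes in the CDCA group. With totals computed without them, the median log2 fold change over all genes tested moved from 0.05 to -0.10. Here and below these are totals of the listed TPM. Against a complete library of 1000000 TPM the 13 mRNAs would take a smaller share, and the shift would be smaller.

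The epithelial markers EPCAM, KRT8, KRT18 and CLDN4 were listed at 64.6 TPM or more in every library, whereas CDH1 and VIL1 were at 0.64 TPM or less in every library and KRT19 matched no gene ID. The adipocyte markers ADIPOQ and LEP were at 0 in every library, PLIN1 and FABP4 were at 0.03 TPM or less, and CIDEC, the only adipocyte marker above 0.03 TPM, gave nearly all of the summed level of the 5 markers, 0.64 to 1.2 TPM in the CON group and 0.45 to 0.66 TPM in the CDCA group. Of the epithelial markers, CLDN4 (215 to 237 TPM in the CON group, 765 to 863 TPM in the CDCA group), EPCAM (118 to 126 and 152 to 173 TPM) and KRT18 (64.6 to 66.4 and 71.4 to 79.2 TPM) were higher in every CDCA library, whereas KRT8 overlapped (220 to 238 and 190 to 225 TPM). The summed epithelial markers were 624 to 648 TPM in the CON group and 1182 to 1322 TPM in the CDCA group; their part in the results was not tested. The summed levels of the other marker lists were low in both groups, at 1.00 to 1.83 TPM for 7 fibroblast markers, 1.68 to 3.27 TPM for 5 hepatocyte markers, 2.99 to 6.17 TPM for 5 leukocyte markers and 1.93 to 2.75 TPM for 4 endothelial markers. The fibroblast sum (1.35 to 1.83 TPM in the CON group, 1.00 to 1.15 TPM in the CDCA group) was lower in every CDCA library. So was the hepatocyte sum (2.89 to 3.27 and 1.68 to 2.17 TPM), while the leukocyte and endothelial sums overlapped. In such bulk libraries fewer cells of a kind and less RNA per cell cannot be told apart.

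**Figure D1:**
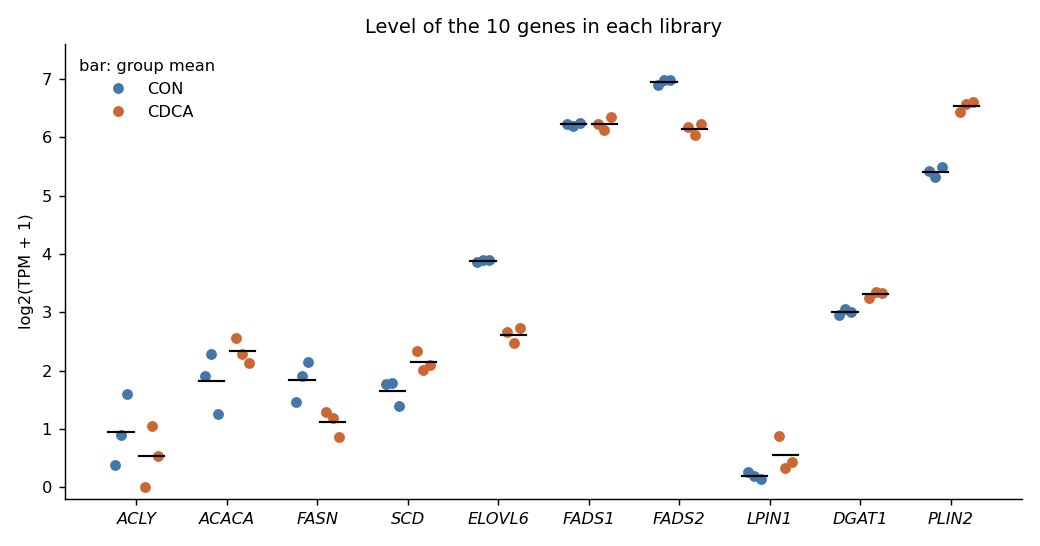
Level of the 10 genes in each of the 6 libraries, as log2(TPM + 1), with 1 point per library and a bar at the mean of the 3 libraries of a group (blue, CON; orange, CDCA). PLIN2, ELOVL6 and FADS2 show groups of points that lie well apart, and FADS1 shows overlapping groups. LPIN1 is at 0.84 TPM or less in every library, and ACLY is scattered between 0 and 2.02 TPM.

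Of the 10 genes, 8 were tested, having a mean of 1 TPM or more. Among these, 3 had an FDR under 0.05 and were higher in the CDCA group (PLIN2, DGAT1 and SCD), 3 had an FDR under 0.05 and were lower (ELOVL6, FADS2 and FASN), and 2 had an FDR of 0.05 or more (FADS1 and ACACA). Over all genes tested, 29.3% were higher and 23.9% lower by the same rule, so that a change of this kind was common in these libraries. With the limit on the fold change, PLIN2 was called higher and ELOVL6 was called lower, where 3.51% of all genes tested were called higher and 3.90% lower. With totals computed without the mitochondrial DNA-encoded genes, 1 of the 8 genes (PLIN2) was higher with an FDR under 0.05 and 3 were lower, where 18.9% of all genes tested were higher and 32.7% lower, and the share of higher genes among all with an FDR under 0.05 moved from 55.0% to 36.6%. The libraries of the 2 groups did not overlap for 6 of the 8 tested genes, where they did not overlap for 61.6% of all genes tested. For the 8 genes the median log2 fold change was 0.16, beside 0.05 for all genes tested.

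**Figure D2:**
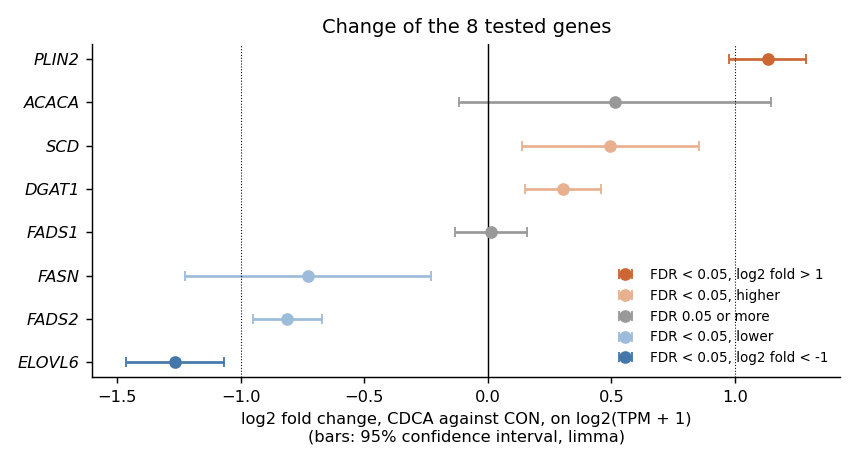
Log2 fold change of the 8 tested genes in the CDCA group against the CON group on log2(TPM + 1), with 95% confidence intervals from limma (horizontal bars) and dotted lines at a log2 fold change of 1 in either direction. The intervals of PLIN2 and ELOVL6 lie on opposite sides of 0, and that of FADS1 spans 0 within 0.16 on either side.

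The early steps of synthesis were weakly listed. ACLY (ENSSSCG00000017421), which splits citrate to give cytosolic acetyl-CoA, was listed at 0.30, 0.85 and 2.02 TPM in the CON group and at 0, 1.07 and 0.45 TPM in the CDCA group, from a single listed transcript. These groups overlapped, and with a mean under 1 TPM the gene was not tested; with no filter on low values its log2 fold change was -0.42 (limma FDR 0.54). ACACA (ENSSSCG00000017694), which makes malonyl-CoA in the step that commits carbon to fatty acids, was listed at 2.73, 3.88 and 1.39 TPM in the CON group and at 4.92, 3.89 and 3.37 TPM in the CDCA group. The 2 groups overlapped through CON replicate 2. The log2 fold change of ACACA was 0.51 (95% confidence interval -0.12 to 1.14, limma FDR 0.15), and it moved with single libraries, to 0.75 without CON replicate 2 (limma FDR 0.044), 0.23 without CON replicate 3 (limma FDR 0.33) and 0.39 without CDCA replicate 1 (limma FDR 0.33).

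FASN (ENSSSCG00000029944), the enzyme that assembles palmitate, was listed at 1.75, 2.75 and 3.45 TPM in the CON group and at 1.44, 1.28 and 0.81 TPM in the CDCA group. The groups did not overlap, although CON replicate 1 and CDCA replicate 1 lay close together. The log2 fold change was -0.73 with an SE of 0.21 (limma FDR 0.024), and the FDR was 0.070 without CON replicate 2, 0.068 without CON replicate 3 and 0.070 without CDCA replicate 3. It was also 0.063 with no filter on low values, 0.095 with the highest listed transcript and 0.060 with a replicate block. FASN had 2 listed transcripts. The first, at 0.67, 1.81 and 2.31 TPM in the CON group and 0.87, 0.56 and 0.36 TPM in the CDCA group, overlapped between the groups. The second did not, at 1.08, 0.94 and 1.14 TPM against 0.57, 0.72 and 0.45 TPM.

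Elongation gave the largest fall of the set. ELOVL6 (ENSSSCG00000036236), which adds 2 carbons to palmitate and so leads to stearate, was listed at 13.5, 13.9 and 13.9 TPM in the CON group and at 5.32, 4.52 and 5.64 TPM in the CDCA group. The CON libraries were nearly alike, and the highest CDCA library lay well below the lowest of them. The log2 fold change was -1.27 with an SE of 0.08 (limma FDR 4.6e-05), and dropping any 1 library gave between -1.32 and -1.19. The leading of its 2 listed transcripts carried 97.7% of the gene's mean TPM, with a CDCA to CON ratio of 0.374.

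Desaturation divided the genes. SCD (ENSSSCG00000010554), which puts the first double bond into stearate and palmitate, was listed at 2.43, 2.44 and 1.62 TPM in the CON group and at 4.04, 3.01 and 3.29 TPM in the CDCA group, a ratio of 1.59. The groups did not overlap. The log2 fold change was 0.50 (SE 0.15, limma FDR 0.029), below the size needed for a call, and the FDR was 0.064 without CON replicate 3, 0.089 without CDCA replicate 1 and 0.061 without CDCA replicate 3. With totals computed without the mitochondrial DNA-encoded genes it was 0.38 (limma FDR 0.082), and with no filter on low values the FDR was 0.071. ELOVL6 and SCD, which act one after the other on the way to oleate, thus had log2 fold changes of opposite sign. Since ELOVL6 was lower and SCD higher in every CDCA library, their ratio could not overlap between the groups. This also fixed its permutation p, which adds nothing to the changes of the 2 genes. The ratio of ELOVL6 TPM to SCD TPM within a library was 6.61 ± 1.7 in the CON group and 1.51 ± 0.20 in the CDCA group, with no overlap (SD, n = 3; two-sided exact permutation p = 0.1, the lowest that 3 libraries against 3 can give).

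FADS1 (ENSSSCG00000024015) and FADS2 (ENSSSCG00000013072) encode the Δ5 and Δ6 desaturases, which work in turn on the way from linoleic and α-linolenic acid to arachidonic and eicosapentaenoic acid. They were among the more abundant genes of the set, above 93.2% and 94.8% of all genes tested in mean TPM. FADS2 was listed at 119, 126 and 125 TPM in the CON group and at 71.2, 64.5 and 74.1 TPM in the CDCA group. No library of one group came near the other, and the log2 fold change was -0.81 (SE 0.06, limma FDR 6.9e-05), which missed the size needed for a call. FADS1 was listed at 74.3, 72.2 and 74.6 TPM in the CON group and at 73.9, 68.9 and 80.7 TPM in the CDCA group. Its CDCA libraries lay on both sides of the CON libraries. The log2 fold change was 0.01, with a 95% confidence interval of -0.13 to 0.16 (limma FDR 0.88), so that on this scaling a change of FADS1 as large as that of FADS2 lay outside the interval; its sign was not stable, and was negative with totals computed without the mitochondrial DNA-encoded genes (-0.16, limma FDR 0.071) and with median ratio scaling (-0.04, limma FDR 0.60).

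The 2 desaturase genes changed place within the libraries. The ratio of FADS2 TPM to FADS1 TPM was 1.60, 1.74 and 1.68 in the CON group and 0.963, 0.937 and 0.918 in the CDCA group, and such a ratio within a library does not depend on how the library is scaled. The groups did not overlap (two-sided exact permutation p = 0.1, the lowest that 3 libraries against 3 can give). In FADS2, 4 transcripts were listed, and the first 3 fell with ratios of 0.563, 0.598 and 0.383 and limma FDR values of 0.00031, 0.00062 and 0.0053, adjusted over all transcripts tested one by one. The fourth, at 0.86, 2.51 and 0.89 TPM in the CON group and 1.24, 0.53 and 0.45 TPM in the CDCA group, overlapped between the groups (limma FDR 0.30). Of the 2 listed transcripts of FADS1, the first was at 61.8, 58.9 and 60.2 TPM in the CON group and 56.5, 52.2 and 62.2 TPM in the CDCA group (limma FDR 0.37). The second rose from 12.5, 13.3 and 14.4 TPM to 17.4, 16.7 and 18.5 TPM (log2 fold change 0.36, SE 0.07, limma FDR 0.0088), which moved its share of the gene from 18.2% to 23.6%.

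**Figure D3:**
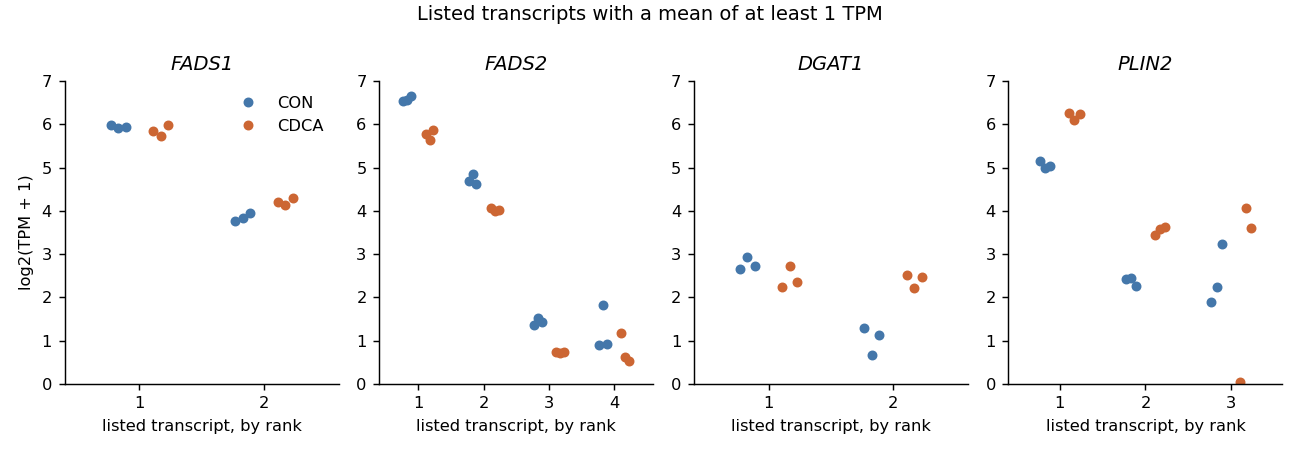
Listed transcripts with a mean of at least 1 TPM for the 4 genes with more than 1 such transcript, as log2(TPM + 1), with 1 point per library and transcripts ordered by mean TPM within a gene. In PLIN2 the first 2 transcripts are higher in CDCA, in FADS2 the first 3 are lower, and in DGAT1 the second is higher in CDCA while the first is not.

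Triglyceride synthesis was represented by 2 genes. LPIN1 (ENSSSCG00000008624), a phosphatidate phosphatase that makes diacylglycerol and also acts in the nucleus, was listed at 0.20, 0.14 and 0.10 TPM in the CON group and at 0.84, 0.26 and 0.35 TPM in the CDCA group. The CDCA libraries were all higher, but the gene lay far below 1 TPM and was not tested; with no filter on low values its log2 fold change was 0.35 (limma FDR 0.17). Of its 8 listed transcripts, 3 were above 0 in any library. The leading one was listed at 0 in the 3 CON libraries and at 0.68, 0.09 and 0.10 TPM in the CDCA libraries, so that CDCA replicate 1 supplied most of it.

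DGAT1 (ENSSSCG00000005918), which adds the last acyl chain to form triglyceride, was listed at 6.76, 7.32 and 7.01 TPM in the CON group and at 8.48, 9.19 and 9.10 TPM in the CDCA group. The groups did not overlap, and the log2 fold change was 0.31 (SE 0.06, limma FDR 0.0070), a ratio of mean TPM of 1.27. With totals computed without the mitochondrial DNA-encoded genes it was 0.15 (limma FDR 0.092). The gene sum joined 2 main transcripts whose shares of the gene differed between the groups. The first was at 5.33, 6.62 and 5.63 TPM in the CON group and at 3.74, 5.56 and 4.12 TPM in the CDCA group, overlapping between the groups (log2 fold change -0.34, SE 0.15, limma FDR 0.11). The second rose from 1.43, 0.58 and 1.18 TPM to 4.74, 3.63 and 4.57 TPM (log2 fold change 1.38, SE 0.19, limma FDR 0.0020). It held 21.2%, 7.92% and 16.8% of the gene's TPM in CON and 55.9%, 39.5% and 50.2% of it in CDCA (two-sided exact permutation p = 0.1, the lowest that 3 libraries against 3 can give). The table gives no transcript IDs, so what the 2 transcripts encode was not analysed here, and RSEM divides shared reads between such transcripts by estimation.

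PLIN2 (ENSSSCG00000035863), the coat protein of lipid droplets in most cells that are not adipocytes, was listed at 41.7, 38.9 and 43.9 TPM in the CON group and at 85.4, 94.1 and 96.8 TPM in the CDCA group. The groups lay far apart, with every CDCA library above every CON library. The log2 fold change was 1.13 with an SE of 0.07 (limma FDR 3.1e-05), and dropping any 1 library gave between 1.09 and 1.18. With totals of the listed TPM computed without the mitochondrial DNA-encoded genes it was 0.96 (limma FDR 5.4e-05), just under the size needed for a call. Totals of a complete library would lower it less. The first and second of its 3 listed transcripts rose with ratios of 2.24 and 2.55 (limma FDR 7.9e-05 and 0.00022). The third was erratic, at 2.68, 3.69 and 8.34 TPM in the CON group and at 0.03, 15.7 and 11.1 TPM in the CDCA group (limma FDR 0.94).

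The order of the genes by level changed with treatment. In the CON group the means fell from FADS2 (123 ± 4.0 TPM, SD, n = 3) to FADS1 (73.7 ± 1.3), PLIN2 (41.5 ± 2.5), ELOVL6 (13.8 ± 0.23) and DGAT1 (7.03 ± 0.28), with no overlap between neighbours. ACACA (2.67 ± 1.2 TPM), FASN (2.65 ± 0.85), SCD (2.16 ± 0.47) and ACLY (1.06 ± 0.88) followed, each overlapping its neighbour. In the CDCA group PLIN2 came first (92.1 ± 6.0 TPM, SD, n = 3), followed by FADS1 (74.5 ± 5.9) and FADS2 (69.9 ± 4.9), whose libraries overlapped. DGAT1 (8.92 ± 0.39 TPM) now lay above ELOVL6 (5.16 ± 0.58), which overlapped ACACA (4.06 ± 0.79). The summed TPM of the 10 genes overlapped between the groups, at 262, 268 and 273 TPM in CON against 256, 251 and 275 TPM in CDCA. Within that sum, FADS1 and FADS2 together made up 73.5% ± 0.38 in the CON group and 55.4% ± 2.0 in the CDCA group, and PLIN2 15.5% ± 0.87 and 35.4% ± 2.1 (SD, n = 3).

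**Figure D4:**
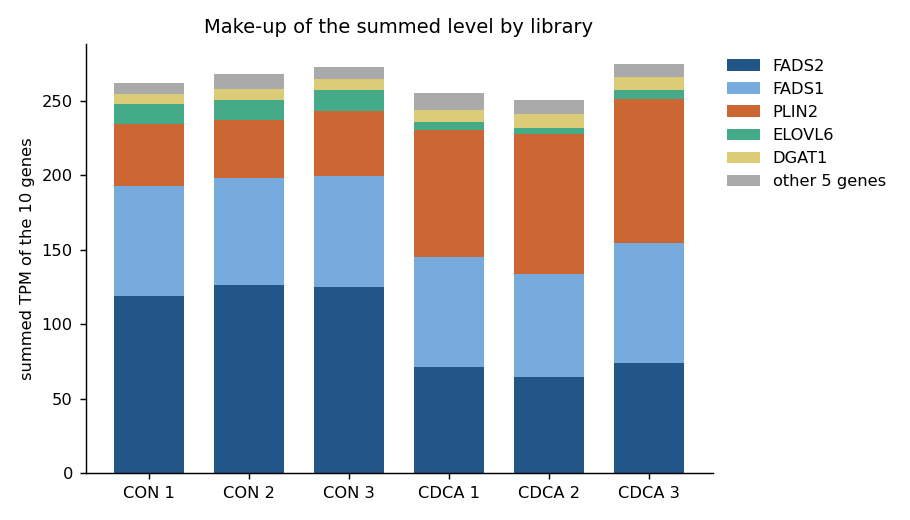
Summed TPM of the 10 genes in each library, stacked by gene from 0, with the 5 genes of lowest level joined (ACLY, ACACA, FASN, SCD and LPIN1). The height is 251 to 275 TPM in all 6 libraries, while the PLIN2 part is taller and the FADS2 and ELOVL6 parts are shorter in CDCA.

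The rest of the pathway was read from 9 lists of 92 further genes, of which 84 matched a gene ID and 45 were tested. Of these 45, 10 had an FDR under 0.05 and were higher (22.2%) and 18 were lower (40.0%), beside 29.3% and 23.9% of all genes tested, and none was called on the deposited scale. Their median log2 fold change was -0.27, beside 0.05 for all genes tested. The same shares of all genes are the background of each list, none of which was tested as a set. With totals of the listed TPM computed without the mitochondrial DNA-encoded genes, 9 were higher and 25 were lower. By the same scaling 18.9% of all genes tested were higher and 32.7% lower. AGPAT5 (-1.15), ELOVL1 (-1.03) and SLC25A1 (-1.01) were then called lower. ELOVL1 and SLC25A1 were called in no other alternative, and totals of a complete library would shift them less. BSCL2 and AGPAT5, both just under the limit on the fold change, were called with a pseudocount of 0.1 TPM (1.07 and -1.34 on the log2 scale) and with the listed TPM rescaled to 1000000 (1.06 and -1.19). AGPAT5 was also called with median ratio scaling, with the highest listed transcript and without CON replicate 3 or CDCA replicate 1, and BSCL2 without CON replicate 2 or CDCA replicate 2.

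Supply of carbon and reducing power went both ways. SLC25A1, the carrier that exports citrate from mitochondria to be split by ACLY, was at 61.5, 67.4 and 72.0 TPM in the CON group and 38.3, 37.1 and 35.8 TPM in the CDCA group (log2 fold change -0.83, SE 0.06, limma FDR 8.8e-05). ACSS2, which makes acetyl-CoA from acetate, fell from 14.5 ± 0.71 to 10.5 ± 0.60 TPM (SD, n = 3; log2 fold change -0.43, limma FDR 0.0018). ME1, the cytosolic malic enzyme that yields NADPH, rose from 49.5 ± 1.7 to 75.4 ± 6.7 TPM (SD, n = 3; log2 fold change 0.59, limma FDR 0.00050). MID1IP1, which promotes the polymer form of acetyl-CoA carboxylase, rose from 58.3, 62.4 and 67.6 TPM to 111, 113 and 112 TPM (log2 fold change 0.83, SE 0.06, limma FDR 5.8e-05). It was the only 1 of 3 further synthesis genes tested with an FDR under 0.05.

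In the elongation list, 4 of 6 further genes tested had an FDR under 0.05, and all 4 were lower, as ELOVL6 was, beside 23.9% lower and 29.3% higher among all genes tested. ELOVL1, an elongase of very long saturated and monounsaturated chains, was at 112, 115 and 112 TPM in the CON group and 63.8, 60.7 and 61.4 TPM in the CDCA group (log2 fold change -0.86, SE 0.04, limma FDR 1.0e-05). HSD17B12, the ketoacyl reductase of the elongation cycle, fell from 48.1 ± 6.9 to 34.7 ± 2.9 TPM (SD, n = 3; limma FDR 0.015, 0.052 without CON replicate 2 and 0.054 with the highest listed transcript), and HACD2, a dehydratase of the same cycle, from 13.2 ± 0.72 to 10.6 ± 0.42 TPM (SD, n = 3; limma FDR 0.0073). In the desaturation list, FADS3, the neighbour of FADS1 and FADS2 in the genome, had a log2 fold change of 0.34 (limma FDR 0.012, and 0.099 with totals computed without the mitochondrial DNA-encoded genes). CYB5R3, a reductase that passes electrons towards the desaturases, and DEGS1, the desaturase of dihydroceramide, had log2 fold changes of -0.32 and -0.28 (limma FDR 0.0017 and 0.012).

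Fatty acid activation and binding were represented by 4 tested genes, of which 3 fell and 1 rose, beside 23.9% lower and 29.3% higher among all genes tested. ACSL1, which activates long-chain fatty acids to acyl-CoA, fell from 10.8 ± 0.97 to 5.63 ± 0.83 TPM (SD, n = 3; log2 fold change -0.83, limma FDR 0.0010). Among the binding proteins, FABP3 fell from 838 ± 30 to 511 ± 15 TPM (SD, n = 3; log2 fold change -0.71, limma FDR 2.9e-05), while FABP5 rose from 19.9 ± 1.0 to 35.9 ± 0.69 TPM (SD, n = 3; log2 fold change 0.82, limma FDR 4.3e-05). FABP1 and FABP2, the binding proteins of mature enterocytes, had means under 0.01 TPM in both groups and were not tested; both were chosen after their values were seen.

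In the glycerolipid list, 3 of 7 further genes tested fell (42.9%, beside 23.9% of all genes tested) and none rose, and 2 of the 3, AGPAT5 and GPAT4, lost their FDR under 0.05 without single libraries. LPIN2, a relative of LPIN1, was at 21.1, 13.6 and 15.7 TPM in the CON group and 7.70, 10.5 and 10.4 TPM in the CDCA group (log2 fold change -0.75, SE 0.18, limma FDR 0.012, and -0.42 with the highest listed transcript). AGPAT5 and GPAT4, acyltransferases of the first steps, had log2 fold changes of -0.99 (SE 0.30, limma FDR 0.030) and -0.53 (SE 0.18, limma FDR 0.046). AGPAT5 overlapped between the groups through CON replicate 3 and CDCA replicate 1. The FDR of AGPAT5 rose to 0.089 without CON replicate 1, 0.090 without CON replicate 2, 0.088 without CDCA replicate 2 and 0.087 without CDCA replicate 3, and that of GPAT4 rose to between 0.069 and 0.12 without CON replicate 1, CON replicate 3, CDCA replicate 1 or CDCA replicate 3. GPAT4 was at -0.27 with the highest listed transcript (limma FDR 0.52), and its FDR was also 0.05 or more with the listed TPM rescaled to 1000000 (0.059), without the trend (0.055) and with no filter on low values (0.11); with no filter that of AGPAT5 was 0.077. DGAT2, the other enzyme of the last step, was at 0.76 TPM in the CON group and 0.74 TPM in the CDCA group on average and was not tested; it was chosen after its values were seen.

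In the droplet list, 4 of 9 further genes tested rose (44.4%) and 2 fell (22.2%), beside 29.3% and 23.9% of all genes tested. BSCL2, which encodes seipin at the site of droplet formation, was at 5.77, 6.48 and 6.02 TPM in the CON group and 13.5, 12.2 and 12.9 TPM in the CDCA group (log2 fold change 0.97, SE 0.07, limma FDR 6.3e-05). PLIN3, a coat protein related to PLIN2, rose by a ratio of 1.46 in mean TPM (log2 fold change 0.51, SE 0.09, limma FDR 0.0036) and HSD17B11, an enzyme found on droplets, from 5.32 ± 0.26 to 7.55 ± 0.38 TPM (SD, n = 3; log2 fold change 0.43, limma FDR 0.0023). Taking the highest listed transcript instead of the gene sum, the log2 fold change of BSCL2 was 0.57 (limma FDR 0.0015), that of PLIN3 was 0.89 (limma FDR 0.062) and that of HSD17B11 was 0.23 (limma FDR 0.083). Of 2 lipolysis genes tested, neither had an FDR under 0.05.

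**Figure D5:**
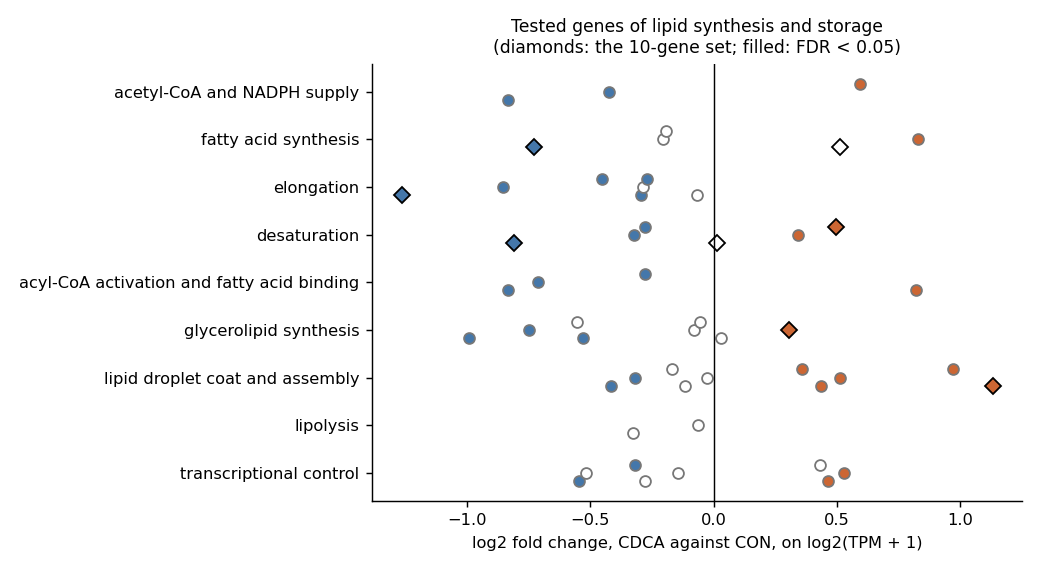
Log2 fold change in the CDCA group against the CON group on log2(TPM + 1) for the tested genes of 9 lists, with 1 symbol per gene (diamonds, the 10-gene set; circles, further genes; filled, FDR under 0.05; orange, higher; blue, lower). The 5 filled elongation genes are all lower, and the filled droplet genes include 5 that are higher and 2 that are lower.

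Among the regulators, 8 of 14 genes with an ID were tested, of which 2 were higher and 2 lower with an FDR under 0.05. That is 25% each, near the 29.3% higher and 23.9% lower among all genes tested. NR1H2, the oxysterol receptor LXRβ, rose from 30.7 ± 0.44 to 44.8 ± 1.1 TPM (SD, n = 3; log2 fold change 0.53, limma FDR 8.2e-05), and INSIG2, which holds sterol regulatory element-binding proteins in the endoplasmic reticulum, rose from 4.60 ± 0.38 to 6.71 ± 0.22 TPM (SD, n = 3; log2 fold change 0.46, limma FDR 0.0027). MLX, the partner of the carbohydrate response factors, fell from 23.4 ± 2.4 to 15.7 ± 1.5 TPM (SD, n = 3). Its log2 fold change was -0.55 (limma FDR 0.0033), and -0.35 with the highest listed transcript (limma FDR 0.029). SREBF1, the main activator of fatty acid synthesis genes, was chosen after its values were seen, at 13.6 TPM in the CON group and 10.7 TPM in the CDCA group on average (log2 fold change -0.32, limma FDR 0.023).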

How the data were processed

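RNA-seq of 6 IPEC-J2 libraries (3 CON, 3 CDCA, grouped by the sample labels) was analysed from 1 table of 63041 listed transcripts. The deposited values are TPM, listed per transcript; the authors quantified abundance with RSEM. The submitters' processing notes name Bowtie 0.12.2 and a mouse build (mm10), whereas the gene IDs are those of the pig; the annotation release and any filter are not given in the sources used here. The TPM of all listed transcripts were summed per gene ID, and symbols came from the table, then from a table of Ensembl IDs. The table holds no read counts per gene, so the edgeR test of the authors was replaced by limma 3.58.1 (lmFit, eBayes with a trend; R 4.3.3) on log2(TPM + 1) of genes whose mean reached 1 TPM, with Benjamini-Hochberg adjustment over all genes tested. The fit was tested on simulated data. Ratios between genes were compared by exact permutation tests.

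The 10 genes, the 9 further lists and the marker lists were chosen with earlier results of these data known. The text names the 10 genes and, in each list, the 3 genes with the largest log2 fold change in size among those with an FDR under 0.05; a gene named beyond these is marked as chosen later. Alternatives in scaling were totals of the listed TPM without the mitochondrial DNA-encoded genes, listed TPM rescaled to 1000000 and median ratio scaling. Others were a pseudocount of 0.1 TPM, testing every gene whatever its level and the highest listed transcript. The fit was also run with a replicate block, with no trend and with each library left out. Tests of single transcripts were added after seeing the data, and the ratios between genes and the transcript shares were not among the tests planned beforehand. No sequence or coordinate is given, since none was used here.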

Additional observations from a re-analysis of the deposited data

How the results depend on the processing

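Over 15 alternatives, ELOVL6, FADS2 and PLIN2 kept their direction and an FDR under 0.05 in all, with log2 fold changes of -1.43 to -1.19, -0.99 to -0.76 and 0.96 to 1.18. FASN had an FDR of 0.05 or more in 7 of them, SCD in 5 and DGAT1 in 3, and ACACA had one under 0.05 in 1. FADS1 turned negative in 6, at -0.16 with totals without the mitochondrial DNA-encoded genes, -0.0396 with median ratio scaling, -0.0836 with its leading transcript (in place of the sum or tested by itself), -0.0016 without CON replicate 2 and -0.0460 without CDCA replicate 3, where leaving out each library gave -0.0460 to 0.0670. DGAT1 turned to -0.34 with its leading transcript, in place of the sum and by itself, settings that leave out its second transcript. With a pseudocount of 0.1 TPM, 2 of the 10 genes were called lower (FASN reached -1.09). Of all genes, 509 were then called higher and 505 lower, against 306 and 340 in the limma fit with a pseudocount of 1 TPM. With totals without the mitochondrial DNA-encoded genes, 0 of the 10 genes were called higher by limma, while 1 (PLIN2, 0.96) was higher with an FDR under 0.05, and 1680 of all genes were higher with an FDR under 0.05. With the listed TPM rescaled to 1000000, 523 genes were called higher and 481 lower. With each library left out, 2 to 4 of the 10 genes were higher and 2 to 3 lower with an FDR under 0.05, and 12 to 17 further genes of the pathway were lower, where the share of all genes tested that was lower also fell, from 23.9% to between 19.9% and 22.3%. Libraries with the same replicate number did not deviate together (correlations -0.04, -0.09 and -0.05 across genes) and none correlated best with its own number, and with a replicate block 309 of all genes were called higher and 343 lower, FASN was at -0.73 with an FDR of 0.060, while the other tested genes of the 10 stayed on their side of 0.05. Of 308 values of further named genes under these alternatives, 290 kept direction and side of 0.05 and 18 crossed it; the cause of these changes was not tested. Without read counts, the counting error of genes at a few TPM (ACACA, FASN and SCD) could not be given; their errors come from the spread between libraries, moderated by limma over all genes tested.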
